A study of Homo sapiens with 6 samples.

Results

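The genes described here are 7 genes of the desmosome (DSP, JUP, PKP2, PKP3, DSC2, DSC3 and DSG2) and 2 further adhesion genes of epithelial cells (EPCAM and MPZL2). The list was set by name, with earlier results of these data known. All 9 of the 9 listed genes were found by Entrez identifier among the 12703 genes analysed. The libraries came from PC3, an established line of prostate cancer cells taken from a metastasis in bone. RNA was compared between 3 control lines, which carried lentivirus with a negative-control insert, and 3 lines with stable GCNT1 overexpression from a lentiviral open reading frame, so that both groups had been transduced. GCNT1 is the enzyme that builds core 2 branches on O-glycans, and the study asked which genes change when it is raised. Each line gave 1 stranded mRNA library, and whether a line was a pool or a single clone is not given in the sources used here, so the p-values measure the spread between these lines only.

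Desmosomes are spot-like junctions that tie neighbouring epithelial cells together and anchor their keratin filaments. Their desmogleins (DSG genes) and desmocollins (DSC genes) are cadherins that cross the membrane and bind those of the next cell. Inside the cell their tails hold plakoglobin (JUP) and plakophilins (PKP genes), which in turn hold desmoplakin (DSP), the link to keratin. EPCAM is a membrane glycoprotein of simple epithelia and carcinomas that is also used to capture tumour cells. MPZL2 is a small immunoglobulin-type adhesion molecule of epithelia.

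Total counts lay between 11392213 and 13825704 per library. GCNT1 itself was counted 9, 13 and 8 times in controls 1 to 3 and 13, 16 and 35 times in overexpressing lines 1 to 3. Its log2 fold change was 0.98 (SE 0.37, edgeR adjusted p = 0.0362), but without overexpressing line 3 it was 0.49 (edgeR adjusted p = 0.269), and DESeq2 gave an adjusted p of 0.0821. The paper also checked its GCNT1 overexpressing PC3 cells by immunocytochemistry, sandwich ELISA and real-time PCR, which are not part of these counts. Keratins KRT8 and KRT18 and vimentin (VIM) were all present, with 222, 253 and 1127 CPM (counts scaled to library size and TMM) on average in controls. Of 7 markers of leukocyte, endothelial and muscle cells 3 were analysed, CD68, PECAM1 and ACTA2, and their summed level was 86.8 to 98.8 CPM in both groups, nearly all of it CD68. For PECAM1 the mean was 1.77 ± 0.292 CPM without and 4.43 ± 0.603 CPM with overexpression (SD, n = 3 each), and its part in the results was not tested.

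The 3 desmosomal cadherins were all lower in GCNT1 overexpressing cells, whereas the 4 plaque genes did not pass the test. MPZL2 was nearly lost and EPCAM did not pass. To be called, a gene needed an adjusted p under 0.05 together with a log2 fold change beyond 0.58 in either direction, after scaling of the counts by TMM and edgeR's quasi-likelihood test over all genes. Of the 9 genes, 3 were called lower (DSC2, DSC3 and MPZL2) and 0 higher. Among all genes tested 11.1% were called lower, 8.28% were called higher and 19.3% were called in either direction. With the adjusted p alone, DSG2 joined them, giving 4 of 9 lower, against 29.3% of all genes lower and 57.6% in either direction. The groups did not overlap in these 4 genes, all lower with overexpression, while among all genes tested 31.6% lay apart and lower, 30.9% apart and higher and 62.5% apart in either direction. The median log2 fold change over the 9 genes was -0.09, and that over all genes was 0.00095. In such bulk samples, fewer cells that express a gene and less of its RNA per cell cannot be told apart.

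**Figure D1:**
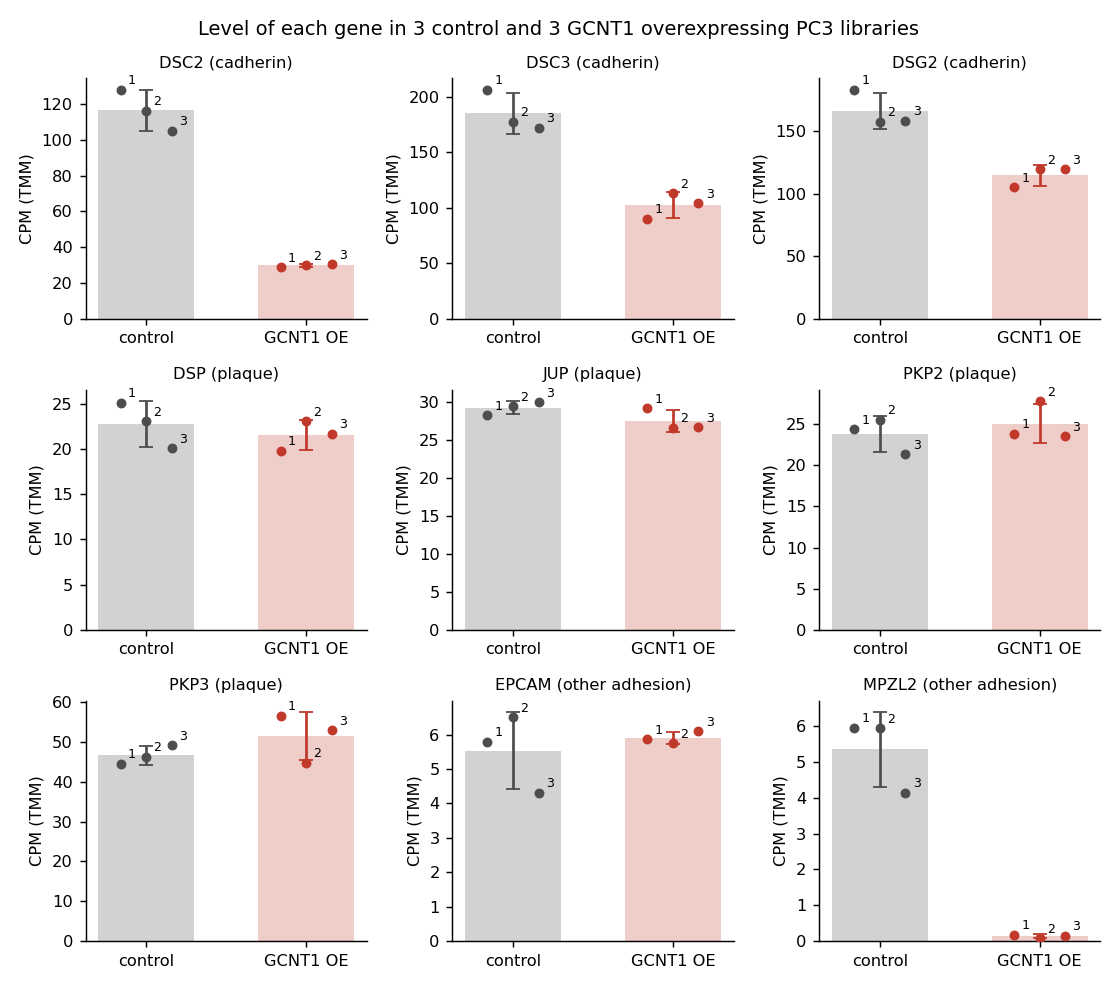
Level of each of the 9 genes in CPM after TMM scaling (y axis, from 0) in 3 control and 3 GCNT1 overexpressing libraries (points, numbered by replicate), with the mean (bar) and SD (error bar). DSC2, DSC3, DSG2 and MPZL2 lie lower in each overexpressing library than in each control, and the groups of the other 5 genes overlap.

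DSC2 encodes desmocollin 2, the desmocollin of simple epithelia and heart. It was counted 1611, 1450 and 1244 times in controls 1 to 3 and 334, 412 and 429 times in overexpressing lines 1 to 3. This gave 128, 116 and 105 CPM in the controls and 28.9, 30.0 and 30.4 CPM with overexpression, with every overexpressing library far under the lowest control. Its mean went from 117 ± 11.4 CPM to 29.8 ± 0.80 CPM (SD, n = 3 each). The fall was 3.91-fold, a log2 fold change of -1.97 (SE 0.08, 95% interval -2.13 to -1.81, edgeR adjusted p = 2.19e-10). DSC2 lay at percentile 2.31 of the log2 fold changes of all genes.

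DSC3 encodes desmocollin 3, best known from the basal layers of stratified epithelia. It had 206, 177 and 172 CPM in controls 1 to 3 and 90.0, 113 and 104 CPM in overexpressing lines 1 to 3, from 2597, 2210 and 2036 counts and from 1042, 1556 and 1467 counts. The highest overexpressing library thus stayed well under the lowest control. The fall was 1.81-fold, a log2 fold change of -0.85 (SE 0.08, 95% interval -1.03 to -0.67, edgeR adjusted p = 1.90e-06).

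DSG2 encodes desmoglein 2, the most widely expressed desmoglein. Its counts were 2306, 1964 and 1873 in controls against 1216, 1646 and 1690 in overexpressing lines, which is 183, 158 and 158 CPM against 105, 120 and 120 CPM. The groups did not overlap, and the log2 fold change of -0.53 (SE 0.07, edgeR adjusted p = 2.65e-05) was past the adjusted p but short of the fold change minimum, so DSG2 was not called. Its 95% interval, -0.69 to -0.38, spans that minimum and slightly overlaps that of DSC3, while the interval of DSC2 lies apart from both.

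These 3 cadherin genes lie in 1 cluster on chromosome 18, where they are neighbours among the analysed genes, and their promoters are shown because all 3 were lower with overexpression. The promoter of DSP, a plaque gene elsewhere that did not pass the test, is given for comparison. Each is the 250 bases before the outermost RefSeq start of the gene (GRCh38.p14), written 5′ to 3′ on the strand of the gene, with capitals marking CACCTG or its reverse complement CAGGTG, the E-box letters that repressors of the SNAI and ZEB families are known to bind. The windows are chr18:31042743-31042992 on the minus strand for DSC3, chr18:31102422-31102671 on the minus strand for DSC2, chr18:31497927-31498176 on the plus strand for DSG2 and chr6:7541421-7541670 on the plus strand for DSP.
DSC3: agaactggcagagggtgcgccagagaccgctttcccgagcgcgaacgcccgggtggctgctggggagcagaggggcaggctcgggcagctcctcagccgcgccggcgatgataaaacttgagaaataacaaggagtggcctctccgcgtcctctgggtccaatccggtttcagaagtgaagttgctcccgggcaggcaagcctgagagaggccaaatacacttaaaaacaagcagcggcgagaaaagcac
DSC2: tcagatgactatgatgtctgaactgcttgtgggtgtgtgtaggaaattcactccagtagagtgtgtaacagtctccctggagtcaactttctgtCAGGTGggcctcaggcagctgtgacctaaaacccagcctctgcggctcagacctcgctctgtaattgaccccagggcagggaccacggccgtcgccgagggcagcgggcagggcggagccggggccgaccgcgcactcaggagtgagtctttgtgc
DSG2: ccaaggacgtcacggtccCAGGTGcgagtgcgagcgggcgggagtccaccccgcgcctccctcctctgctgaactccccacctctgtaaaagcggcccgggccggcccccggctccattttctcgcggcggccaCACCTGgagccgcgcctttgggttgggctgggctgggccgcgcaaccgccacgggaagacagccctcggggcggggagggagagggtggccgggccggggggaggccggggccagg
DSP: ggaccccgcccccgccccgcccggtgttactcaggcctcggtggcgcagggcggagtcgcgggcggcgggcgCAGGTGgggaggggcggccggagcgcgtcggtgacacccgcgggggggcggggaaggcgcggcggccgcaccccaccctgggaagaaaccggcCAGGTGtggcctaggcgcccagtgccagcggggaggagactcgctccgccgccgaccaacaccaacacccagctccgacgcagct

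On either strand these 6 letters occurred in 17.5% of 35116 RefSeq promoter windows of this length. Counted back from the start, with -1 as the base before it, DSC2 held 1 match beginning at -156. DSG2 held 2, beginning at -232 and -116, and DSP held 2, beginning at -178 and -85. DSC3 held 0. DSC2 held 0 before its inner start, and JUP held 0 before its outermost start and 2 before its inner one. The letters thus occurred in promoters of genes that were lower and of a gene that did not pass the test. GC content was 59.6% for DSC2, 60.4% for DSC3, 75.2% for DSG2 and 78.0% for DSP, against a median of 58.0% over all windows. Promoter windows were at hand for 5 of the 9 genes, which leaves out PKP2, PKP3, EPCAM and MPZL2.

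Of the 4 plaque genes 0 were called, against 19.3% of all genes, and 0 had groups that did not overlap, against 62.5%. DSP, desmoplakin, was counted 316, 287 and 237 times in controls 1 to 3 and 229, 317 and 306 times in overexpressing lines 1 to 3, which is 25.1, 23.05 and 20.05 CPM against 19.8, 23.1 and 21.7 CPM. Its log2 fold change was -0.08 (95% interval -0.28 to 0.13, edgeR adjusted p = 0.505). JUP, plakoglobin, an armadillo protein that also serves in adherens junctions, had 28.3, 29.5 and 30.0 CPM in controls and 29.2, 26.6 and 26.7 CPM with overexpression. The log2 fold change of JUP was -0.09 (95% interval -0.25 to 0.06, edgeR adjusted p = 0.298). In both genes the groups overlapped, and the intervals hold no change as large as the fold change minimum.

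PKP2 and PKP3 encode plakophilins, armadillo proteins that cluster the cadherins with desmoplakin. PKP2 had 24.4, 25.5 and 21.3 CPM in controls and 23.8, 27.8 and 23.5 CPM with overexpression, a log2 fold change of 0.08 (95% interval -0.12 to 0.28, edgeR adjusted p = 0.491). PKP3 had 44.5, 46.3 and 49.1 CPM in controls and 56.6, 44.8 and 53.0 CPM with overexpression, a log2 fold change of 0.14 (95% interval -0.04 to 0.32, edgeR adjusted p = 0.164). Overexpressing line 2 was the highest of its group for PKP2 and the lowest for PKP3. Without that line the log2 fold change of PKP3 was 0.24 (edgeR adjusted p = 0.0143), still under the fold change minimum.

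**Figure D2:**
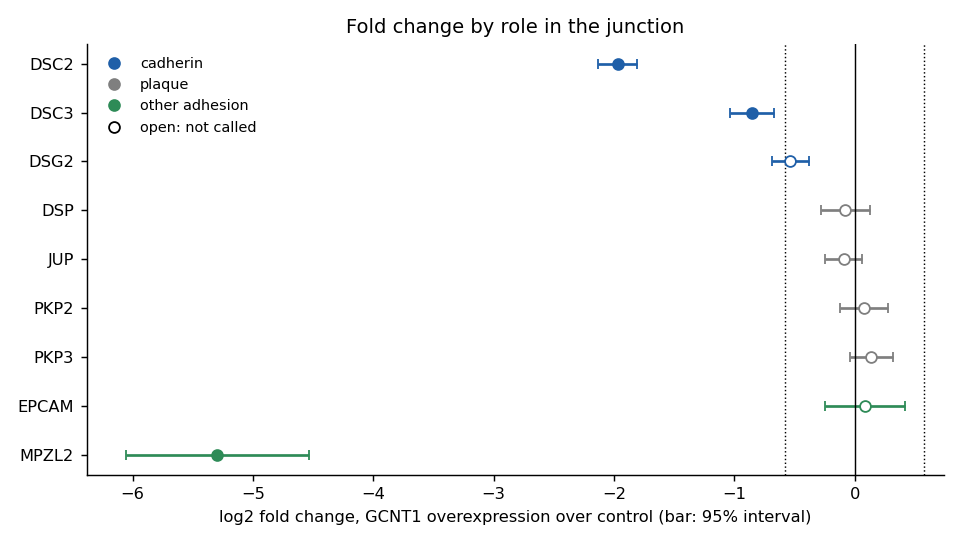
Log2 fold change of each gene, GCNT1 overexpression over control (x axis), with its 95% interval from edgeR, coloured by role; filled points were called, open points were not, and dotted lines mark the fold change threshold of 0.58. The 3 cadherins lie at -1.97, -0.85 and -0.53, the 4 plaque genes between -0.09 and 0.14, EPCAM at 0.09 and MPZL2 at -5.30.

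The summed level of the 3 cadherins was 436 to 518 CPM in the controls and 224 to 263 CPM with overexpression. For the 4 plaque genes together it was 121 to 124 CPM in the controls and 122 to 129 CPM with overexpression. The ratio of summed cadherin to summed plaque CPM was 3.83 ± 0.352 (SD, n = 3) in controls and 1.97 ± 0.217 (SD, n = 3) in overexpressing cells. These sums were not divided by transcript length, so longer transcripts weigh more and the ratio is not one of molecules. The lowest control ratio was 3.62 and the highest with overexpression 2.15. The level plaque sum depends on which genes are counted as plaque: with PKP1 and PKP4, plakophilins outside the 9 genes, it was 616 ± 22.7 CPM in controls and 502 ± 15.7 with overexpression, and the ratio was 0.762 ± 0.0955 and 0.493 ± 0.0555 (SD, n = 3 each). The ratio with overexpression was thus 51.5% of control for the 4 plaque genes and 64.7% with these added, a choice made after seeing the data. This grouping by role was laid out with the values in view and is a description without a test.

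The balance between the 2 desmocollins was lower for DSC2. It made up 27.6%, 28.7% and 27.3% of DSC2 and DSC3 together in controls 1 to 3, in counts per kilobase of the canonical transcript, and 16.5%, 14.0% and 15.2% in overexpressing lines 1 to 3. The share was thus lower by 12.7 percentage points on average, 27.9 ± 0.757% against 15.2 ± 1.23% (SD, n = 3 each). An exact two-sided permutation test gave p = 0.10, the smallest that 3 against 3 libraries allow, so this design cannot reach 0.05. In raw counts the share went from 38.6% to 22.6%. For the plakophilins the share of PKP2 in PKP2 and PKP3 was 25.3 ± 2.53% in controls and 24.7 ± 3.99% with overexpression (SD, n = 3 each, exact permutation p = 0.90). The sign of that small difference turned when any of 4 of the libraries was left out. A share within a library does not depend on how the libraries were scaled.

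**Figure D3:**
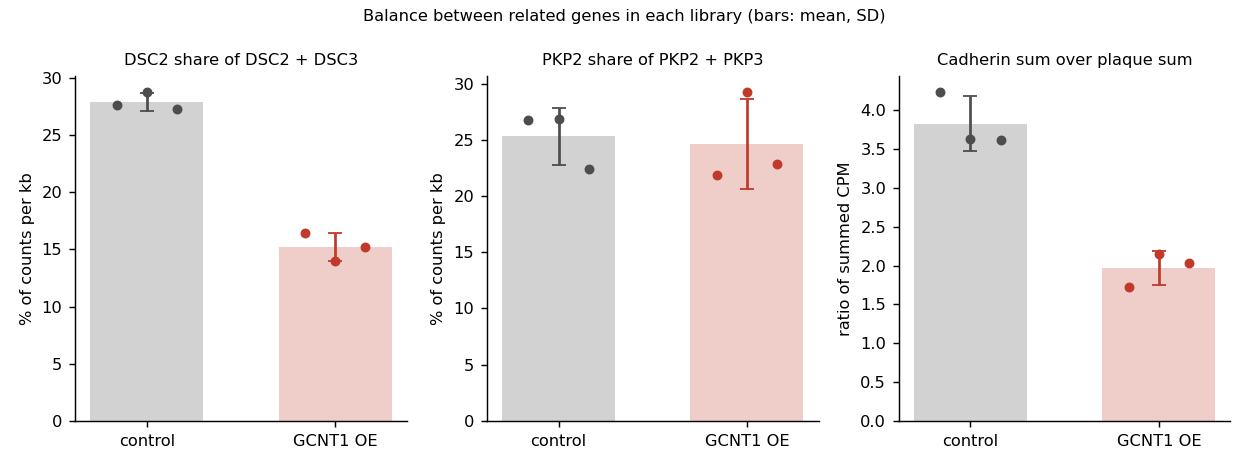
Share of DSC2 in DSC2 and DSC3 and of PKP2 in PKP2 and PKP3 (percent of counts per kilobase), and the ratio of the summed CPM of 3 cadherins to that of 4 plaque genes, in each library (points) with mean (bar) and SD (error bar). The DSC2 share and the cadherin ratio are lower in all 3 overexpressing libraries, at 14.0% to 16.5% and 1.73 to 2.15, while the PKP2 share overlaps between the groups.

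EPCAM was low in all 6 libraries, with 73, 81 and 51 counts in controls 1 to 3 and 68, 79 and 86 counts in overexpressing lines 1 to 3. This is 5.80, 6.51 and 4.31 CPM against 5.88, 5.75 and 6.10 CPM, and the groups overlapped. The log2 fold change was 0.09 (95% interval -0.25 to 0.42, edgeR adjusted p = 0.645). At this depth the changes inside that interval cannot be told from none, and it holds none as large as the fold change minimum. EPCAM lies on chromosome 2 from 47369311 to 47387020. Over its 50 closest analysed neighbours the median log2 fold change was -0.46, 17 of them were called lower, against 11.1% of all genes, and the neighbour before it, CALM2, was at -0.43.

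MPZL2 was counted 75, 74 and 49 times in controls 1 to 3 and 2, 1 and 2 times in overexpressing lines 1 to 3. The controls held 5.96, 5.94 and 4.14 CPM, and the overexpressing libraries were at 0.173, 0.0728 and 0.142 CPM, at or under the floor of 3 counts per library. The pooled counts of 198 and 5 gave a ratio of 42.4 (exact 95% interval 17.8 to 132, covering counting error only). EdgeR gave an adjusted p of 4.54e-08, and its fitted log2 fold change of -5.30 depends on the small count that it adds. Of the 9 genes MPZL2 had the largest fall, although it was among the lowest in the controls.

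Across genes, levels were compared per kilobase of the GENCODE 44 canonical transcript. In controls DSG2 was highest with 29.2 ± 2.55 CPM per kb, followed by DSC3 with 24.4 ± 2.42, PKP3 with 16.6 ± 0.831, DSC2 with 9.45 ± 0.924 and JUP with 8.35 ± 0.254 (SD, n = 3 each). Lower levels were those of PKP2 with 5.62, EPCAM with 3.58, DSP with 2.34 and MPZL2 with 2.04 CPM per kb. Within this order DSC2 and JUP overlapped, as did DSP and MPZL2. With overexpression DSG2, at 20.2 ± 1.49 CPM per kb, overlapped PKP3, at 18.3 ± 2.14, and DSC2 went from the fourth place to the seventh, at 2.41 ± 0.0649 CPM per kb, where it overlapped DSP at 2.22 ± 0.170 (SD, n = 3 each). The canonical transcript of DSC2 has 12331 bases, of which 2703 are coding, so its place depends on the length used. Per kilobase of coding sequence the controls held 69.0 CPM of DSC3, 49.6 of DSG2 and 43.1 of DSC2.

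Among the control lines the cadherin genes varied by more than counting. There the coefficient of variation was 9.77% for DSC2, 9.92% for DSC3 and 8.73% for DSG2, against 2.64%, 2.09% and 2.21% from counting alone. Control line 1 was the highest control for DSC2, DSC3, DSG2 and DSP, and overexpressing line 1 was the lowest of its group for the same 4 genes. JUP, with a coefficient of variation of 3.04% in controls against 5.28% from counting, did not vary beyond it there. Among the overexpressing lines DSC3 and DSG2 varied by 11.4% and 7.403%, against 2.72% and 2.57% from counting, whereas DSC2 varied by 2.69%, less than the 5.05% that counting gives. Leaving out control line 1 moved the log2 fold changes of DSC2, DSC3 and DSG2 to -1.89, -0.76 and -0.45, which changed no call.

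The 3 cadherin genes belong to 1 cluster on chromosome 18 that holds all human desmocollin and desmoglein genes. RefSeq places 7 protein-coding genes between the outer ends of DSC3 and DSG2, a span of 560 kb, in the order DSC3, DSC2, DSC1, DSG1, DSG4, DSG3 and DSG2, of which 3 were analysed. DSC3 lies from 30989365 to 31042742, DSC2 from 31058840 to 31102421 and DSG2 from 31498177 to 31549008. The analysed genes on either side differed from them. B4GALT6, after DSG2, had 30.4 CPM in controls and 29.2 with overexpression (log2 fold change -0.05, edgeR adjusted p = 0.656). CDH2, N-cadherin, before DSC3 by some distance, was 135 CPM in controls and 176 with overexpression (log2 fold change 0.38, edgeR adjusted p = 1.56e-05), under the fold change minimum. Over the 50 closest analysed neighbours the median log2 fold change was -0.09 for DSC2 and DSC3 and -0.12 for DSG2. Antisense genes overlap DSC2 (DSCAS), DSG2 (DSG2-AS1) and DSP (DSP-AS1), and an unnamed gene of the same strand overlaps PKP2. Since the strand setting of the counting is not given, reads of the antisense genes cannot be told apart from those of DSC2, DSG2 and DSP. For PKP2, reads of the overlapping gene could not be separated by strand in any case.

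MPZL2 lies on chromosome 11 from 118253416 to 118264297, and MPZL3, a paralogue on the same strand, ends 1050 bases before it. MPZL3 was lower as well, with 78, 64 and 62 counts in controls and 10, 15 and 12 counts with overexpression. Its log2 fold change was -2.55 (SE 0.20, edgeR adjusted p = 2.83e-07). UBE4A, the next analysed gene on the other side, was called at -0.60, and CEP164, before MPZL3, was at -0.27 and not called. The median over the 50 analysed genes nearest to MPZL2 was -0.27, so that both MPZL genes stood far under their surroundings. MPZL1, the paralogue on chromosome 1, had 151 CPM in controls and 165 with overexpression (log2 fold change 0.13, edgeR adjusted p = 0.0389) and was not called.

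**Figure D4:**
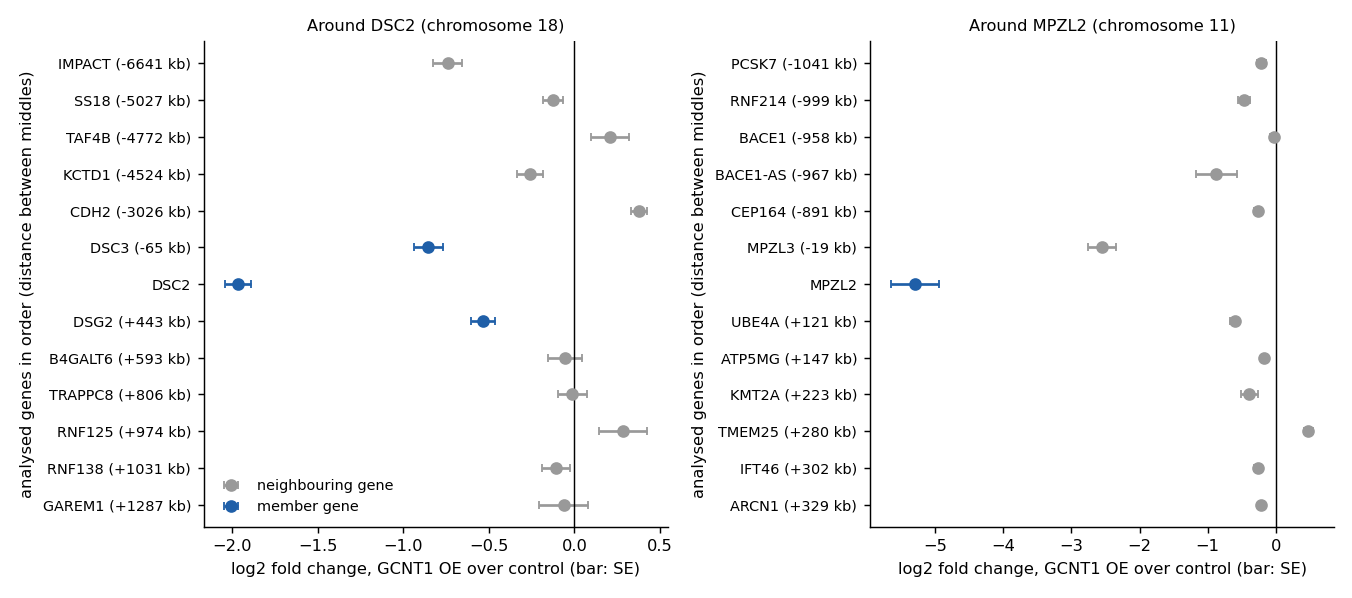
Log2 fold change of the analysed genes around DSC2 and around MPZL2 (x axis, bars: SE), in chromosomal order from top to bottom, with the distance between the middles of the genes in kb; blue marks genes of the set of 9. DSC3, DSC2 and DSG2 lie at -0.85, -1.97 and -0.53 between CDH2 at 0.38 and B4GALT6 at -0.05, and MPZL3 and MPZL2 lie at -2.55 and -5.30.

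Of 10 further desmosome and plaque genes listed from general knowledge, 5 were analysed, and all 5 were lower in each overexpressing library than in each control, as 31.6% of all genes tested were. PERP, a membrane protein needed for desmosome assembly, was the 1 called gene, against 11.1% of all genes called lower, and fell from 178 ± 3.94 to 98.4 ± 0.714 CPM (SD, n = 3 each, log2 fold change -0.86, SE 0.05, edgeR adjusted p = 8.41e-09). Plakophilin 1, PKP1, had the highest level of these, 417 ± 22.3 CPM in controls and 309 ± 10.2 with overexpression, and was past the adjusted p but not the fold change minimum (log2 fold change -0.43, edgeR adjusted p = 8.42e-06). PPL and PKP4 were at -0.13 and -0.18. With the adjusted p alone 4 of the 5 were lower and 0 higher, against 29.3% and 28.3% of all genes, and the median over them was -0.21. DSG1, DSG3, DSG4, DSC1 and CDSN were not analysed here.

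Of 15 listed keratins, the filament proteins that desmoplakin binds, 7 were analysed, 3 were called higher and 2 lower, against 8.28% and 11.1% of all genes, with a median log2 fold change of -0.14. KRT7 rose from 26.0 ± 3.27 to 81.7 ± 14.7 CPM (SD, n = 3 each, log2 fold change 1.65, edgeR adjusted p = 1.49e-07), KRT80 by 1.32 and KRT81 by 0.99 on the log2 scale. Some reads of KRT81 may be shared with similar hair keratins and its value is uncertain. KRT15 fell by 1.00 and KRT19 by 0.68 on the log2 scale. The pair of simple epithelia, KRT8 and KRT18, was at -0.14 and -0.18 and not called.

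In adherens junctions, the other junction that holds plakoglobin, 1 of 11 analysed genes was called lower and 0 higher, out of 13 listed and against the same shares of all genes, with a median log2 fold change of -0.18. The called gene was CDH1, E-cadherin, with 56, 43 and 34 reads in controls against 15, 14 and 14 in overexpressing lines (log2 fold change -1.71, SE 0.24, edgeR adjusted p = 4.74e-05). Its level of 3.59 CPM in controls was far under the 135 CPM of CDH2. VCL, CTNNB1 and NECTIN2, the most abundant of those not called, were at -0.18, -0.21 and 0.00081.

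Among 14 analysed partners and processing enzymes of EPCAM, out of 17 listed, 1 was called lower and 0 higher, against 11.1% and 8.28% of all genes, with a median log2 fold change of -0.03. SPINT2, an inhibitor of the membrane serine proteases that can cut EPCAM, fell from 172 ± 7.81 to 94.4 ± 6.72 CPM (SD, n = 3 each, log2 fold change -0.87, SE 0.06, edgeR adjusted p = 7.23e-08). CD44 was at -0.02 and APH1A, a subunit of gamma-secretase, at -0.13, and neither was called. CLDN7, ST14 and PRSS8 were not analysed here.

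Of 18 listed transcription factors and splicing regulators that favour or oppose epithelial genes, 12 were analysed, with 2 called lower and 2 called higher, against 11.1% and 8.28% of all genes, and a median log2 fold change of -0.19. TWIST2, an EMT factor, had 64, 66 and 72 reads in controls against 2, 1 and 1 in overexpressing lines, a pooled ratio of 54.0 (exact 95% interval 20.8 to 200.1, covering counting error only, edgeR adjusted p = 1.06e-08). ZEB2, a repressor of CDH1, rose from 1.40 ± 0.489 to 3.92 ± 0.716 CPM (SD, n = 3 each, log2 fold change 1.48, edgeR adjusted p = 0.000197). The epithelial splicing regulator ESRP2 rose by 0.75 and the epithelial factor ELF3 fell by 0.73 on the log2 scale. KLF5, ZEB1 and KLF4 were the most abundant of those not called, at -0.45, -0.20 and 0.18.

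**Figure D5:**
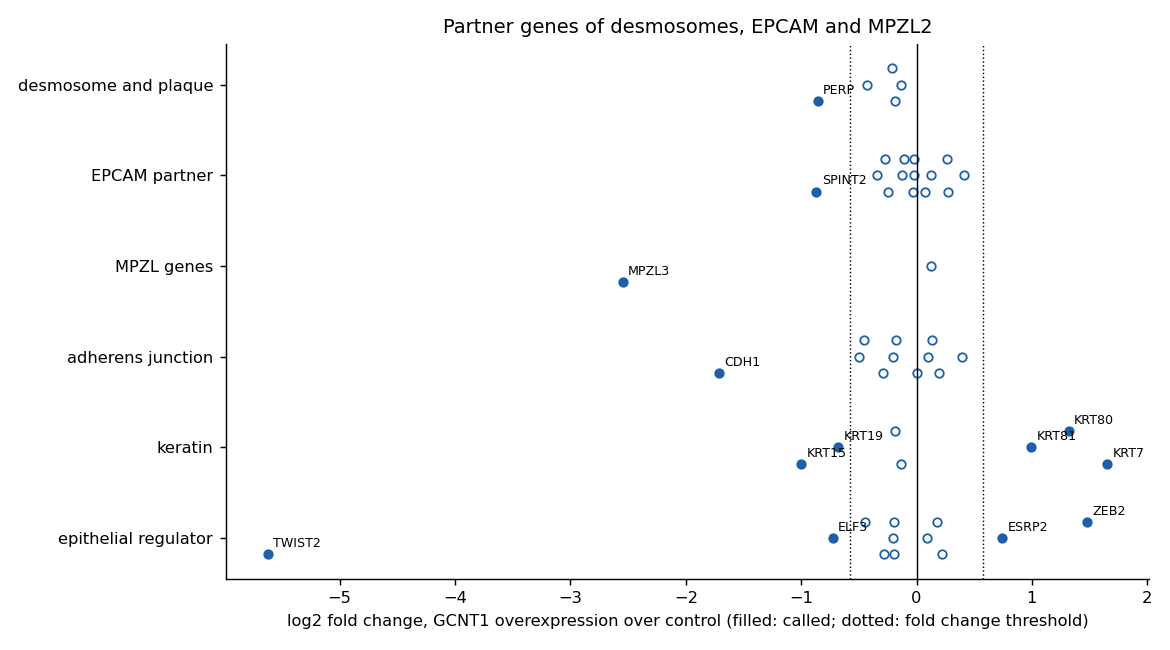
Log2 fold change (x axis) of each analysed gene of 6 lists around desmosomes, EPCAM and MPZL2, 1 point per gene, filled and named where called; dotted lines mark the fold change threshold of 0.58. PERP, SPINT2, MPZL3 and CDH1 are the called genes of their lists, while keratins and regulators lie on both sides.

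The profiles most like those of the called genes were found as the smallest root mean square distance in log2 CPM, centred on the control mean, over the 6 libraries and 12555 genes. For DSC2 they were SIPA1L2 (distance 0.04, log2 fold change -1.93) and SLC14A1 (distance 0.08, log2 fold change -2.06). SLC14A1 lies on chromosome 18 as well. For DSC3 they were EDIL3 (distance 0.03, log2 fold change -0.86) and TBC1D8B (distance 0.04, log2 fold change -0.89), and 442 genes lay within a distance of 0.2. For MPZL2 the nearest were ST6GAL2 and LSAMP, each at 0.19. ST6GAL2 had 0 counts in each overexpressing library, so this likeness rests on the prior count of 2. These distances describe shape and size of change and were given no test.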

How the data were processed

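RNA of 6 PC3 lines was prepared as stranded mRNA libraries. The deposited values are raw read counts per Entrez gene, which the authors made by trimming reads, aligning them with HISAT2 to hg38 and counting with featureCounts. The annotation, strand setting and low-count filter are not given in the sources used here. Columns were matched to samples by the labels, and 12661 of 12703 identifiers to symbols.

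Counts were filtered with filterByExpr, scaled by TMM and tested with edgeR 4.0.16 (quasi-likelihood) in R 4.3.3, comparing 3 overexpressing with 3 control libraries, with Benjamini-Hochberg adjustment over 12703 genes. Calls needed both an adjusted p under 0.05 and a change beyond 0.58 on the log2 scale. Shares were compared with an exact permutation test. The test was checked on simulated data. A floor of 3 counts per library was used, and intervals on pooled counts cover counting error only. Alternatives were limma 3.58.1 (voom, robust), DESeq2 1.42.0, other scalings and filters, a replicate block, the adjusted p alone and leaving out each library. Positions and promoters are from RefSeq (GRCh38.p14) and transcript lengths from GENCODE 44 canonical transcripts.

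The genes and gene lists were chosen with earlier results of these data known. Named from each list were the called genes, up to 5 by smallest p, and up to 3 that were not called, by highest mean CPM. For each called gene of the 9, the 2 nearest profiles were named, and neighbours at its locus. Some genes of the lists are not reported here.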

Additional observations from a re-analysis of the deposited data

How the results depend on the processing

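DSC2, DSC3 and MPZL2 were called lower under limma, DESeq2, other scalings and each left-out library, and DSG2 kept its direction without reaching the fold change minimum. Requiring 10 counts in every library left 2 of the 9 genes called, since MPZL2 is then not tested. As single libraries were dropped, DSP ran from -0.16 to 0.0075 on the log2 scale (0.0075 without control 1), EPCAM from -0.058 to 0.22 (-0.058 without control 3), and the difference in PKP2 share from -2.97 to 0.69 percentage points. The cause was not tested. With the adjusted p alone, called genes numbered 7314 of all, 4 in the desmosome and plaque list, 8 among EPCAM partners, 2 among the relatives of MPZL2, 6 in adherens junctions and 7 among regulators. GCNT1 missed the adjusted p with DESeq2 and without control 1, control 3 or overexpressing line 3. Same-numbered lines did not deviate together (mean correlation -0.13), but 3 lines per group are too few to tell whether the numbers pair them. With a replicate block 2423 genes were called, against 2457 without it, and 3 of the 9 genes. MPZL2 with 1 or 2 counts per overexpressing library, and EPCAM with under 90 counts, are limited by depth.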
